A study of Homo sapiens with 12 samples.

Results

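The comparison asks what perifosine added to sorafenib in HDLM-2 cells, an established human Hodgkin lymphoma line. It rests on 6 of the 12 arrays of the study: 3 arrays of cells given 10 µM perifosine together with 5 µM sorafenib for 24 h, called the combination here, against 3 arrays of cells given 5 µM sorafenib alone for 24 h. The other 6 arrays are 3 of cells given 10 µM perifosine alone for 24 h and 3 of untreated control cells, and they serve to set the same drug beside itself without sorafenib. All 4 groups are the same line in the same medium, the members were chosen by the sample titles alone, and every array was read as log2 signal for 13551 named genes. No source used here says whether the 3 samples of a group were separate cultures, and the p-values below cover only the spread among these samples, possibly a technical one.

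Perifosine is an alkylphospholipid, a synthetic relative of membrane phospholipids. It hinders the recruitment of the kinase AKT to the membrane and so lowers signalling from PI3K through AKT to mTOR. Sorafenib inhibits RAF kinases and several receptor tyrosine kinases and thereby the MAPK pathway. TRIB3 is a pseudokinase of the Tribbles family that binds AKT and is transcribed under amino acid and endoplasmic reticulum stress through the factors ATF4 and CHOP (the product of DDIT3). AARS1 charges the alanine tRNA in the cytosol, and many aminoacyl-tRNA synthetase genes are targets of ATF4. AKT restrains the FOXO factors, which drive cell cycle inhibitors and the death gene BCL2L11, so growth arrest genes and FOXO targets are the natural places to look for an effect of perifosine on RNA.

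No single gene was called between the combination and sorafenib alone, and TRIB3 and AARS1, both higher on all 3 combination arrays, were not called either. Of 13551 genes tested in limma, 0 (0%) had a Benjamini-Hochberg adjusted p under 0.05, and the smallest adjusted p was 0.608. At an unadjusted p under 0.05 there were 818 genes (6.04%), 435 higher (3.21%) and 383 lower (2.83%) in the combination, where chance alone gives 677.55 on average among that many independent tests. On the log2 scale the changes centred on 0.0049 with an SD of 0.183, and 90% of them lay between -0.29 and 0.31. The estimate passed 1.5-fold in either direction for 74 genes and 2-fold for 1 gene, KCMF1. Among 6673 probes without a single gene symbol, limma also called 0, with 404 (6.05%) under an unadjusted p of 0.05. In the same fit sorafenib against control gave 111 called genes (0.819%) and the combination against control 85 (0.627%), so the arrays and the fit did return calls for comparisons with sorafenib in them.

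**Figure D1:**
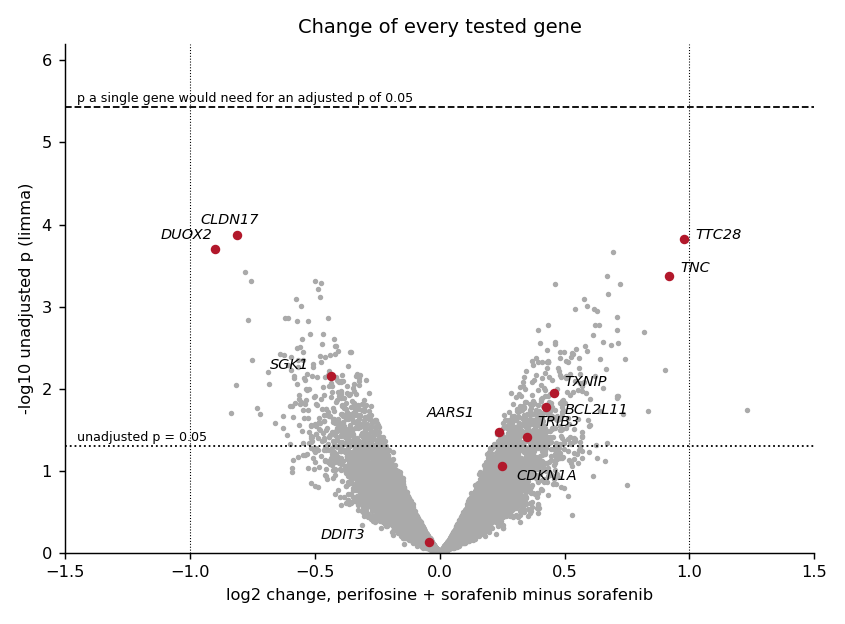
Change of each of the 13551 tested genes, combination minus sorafenib on the log2 scale (horizontal), against -log10 of the unadjusted limma p (vertical), with genes named in the text in red. The dashed line is the p that one gene alone would need to be called, and every point lies below it.

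The arrays were near copies of each other in overall profile. Log2 signals correlated at 0.9888 to 0.9945 between combination and sorafenib arrays and at 0.988 to 0.9943 between arrays of one group. The arrays had been normalised to one distribution before deposit, so a shift of all genes together cannot be seen. One sorafenib array, replicate C, stood apart. Its residuals from the group means had an SD of 0.211, and those of perifosine replicate B 0.222, against 0.151 to 0.181 on the other 10 arrays, and the residuals of these 2 arrays correlated at 0.389 across genes. For the genes below whose change moved by over 1.5 times without sorafenib C and exceeded 0.2 in size, the value without it is given beside the change. Without sorafenib C limma called 0 genes, with a smallest adjusted p of 0.952 and 631 genes under an unadjusted p of 0.05. Without both arrays it called 0 as well, with 0.759 and 805.

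Markers of Hodgkin cells were present throughout. CCL17, the chemokine TARC that these cells secrete, averaged 15.14 on combination arrays and 15.11 on sorafenib arrays, the actin bundler FSCN1 14.41 and 14.33, the transcription factor IRF4 11.82 and 11.96, the ligand CD274 10.31 and 10.42, and TNFRSF8 (CD30) 8.323 and 8.299 log2 signal. Of 25 Hodgkin cell genes with a probe, 23 were above background on all 6 arrays. Some genes were listed as markers of other cell types, though a Hodgkin line may transcribe them itself. Of these, 2 of 11 B cell genes, 3 of 15 T and NK cell genes, 3 of 12 myeloid genes and 2 of 12 fibroblast and endothelial genes were above background on all 6 arrays. The B cell factor PAX5, the T cell surface proteins CD5 and CD8A, the neutrophil proteins S100A9 and MPO and the collagen COL3A1 were above it on none. Present on all 6 were the T cell proteins CD247, at 14.55 in the combination and 14.4 with sorafenib, and CD2, at 13.8 in both. So were the B cell factor SPIB at 10.42 and 10.46 and the smooth muscle actin ACTA2 at 12.79 and 12.76. The myeloid proteins CD68 at 9.356 and 9.12 and CSF1R at 9.011 and 8.634 were too. Dimmer ones were the B cell marker MS4A1 (7.395 and 7.209) and the T and NK cell marker NKG7 (7.596 and 7.526). The myeloid marker FCGR3A (7.007 and 7.222) and the endothelial marker PECAM1 (7.888 and 8.05) completed the set. The 9 myeloid markers tested had the highest median change of any list, 0.178, and their mean log2 signal ran from 7.225 to 7.392 on combination arrays and from 6.952 to 7.277 on sorafenib arrays. That median was 0.112 without sorafenib C and 0.085 without background correction, and 0 of the 9 had an unadjusted p under 0.05. Whether such transcripts came from the line itself was not tested, nor was their part in the results below.

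TRIB3 was the gene named in the question, and its signal was higher on all 3 combination arrays than on any sorafenib array, without being called. Its log2 signal was 9.89, 9.91 and 9.87 on the 3 combination arrays, against 9.57, 9.71 and 9.34 on the 3 sorafenib arrays. The combination arrays lay close together and the sorafenib arrays did not, with replicate C the lowest. The change was 0.35 ± 0.15 on the log2 scale (SE, n = 3 each), a 1.27-fold difference with a 95% interval from 1.01 to 1.60. Its unadjusted limma p was 0.038 and its adjusted p 0.815, so it was not called. The exact two-sided permutation test over the 6 arrays gave p = 0.1, the smallest that 20 splits allow. Without sorafenib C the change was 0.25, with an interval from -0.10 to 0.60, and without perifosine B as well it was 0.25, from 0.02 to 0.47, with an unadjusted p of 0.0328.

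Without sorafenib the group means of TRIB3 lay the other way round, but the groups overlapped. The signal was 9.50, 8.88 and 9.41 on perifosine arrays, against 9.48, 9.52 and 9.63 on control arrays, a change of -0.28, with perifosine B the lowest of the 12. The difference between both changes, the interaction, was 0.63 ± 0.21 (SE), with an unadjusted p of 0.012 and an adjusted p of 0.606 in limma. Perifosine B and sorafenib C, each the lowest array of its group, both enlarge this difference, and no value without them is given. Averaged over both backgrounds the change was 0.04, with an interval from -0.20 to 0.27. The other Tribbles genes had changes below 0. TRIB1, an adaptor that targets C/EBP factors for degradation, read 12.93, 12.59 and 12.65 on combination arrays, against 12.98, 12.86 and 12.56 on sorafenib arrays, a change of -0.08. For TRIB2 the change was -0.14, and the groups overlapped for both genes.

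AARS1 showed the same order of groups with a smaller difference. Its log2 signal was 13.47, 13.52 and 13.50 on combination arrays, against 13.26, 13.37 and 13.14 on sorafenib arrays, so the groups did not overlap and sorafenib C was again the lowest. The change was 0.24 ± 0.10 (SE, n = 3 each), or 1.18-fold with an interval from 1.02 to 1.37, with an unadjusted p of 0.033 and an adjusted p of 0.815 in limma. The exact permutation p was 0.1, and without sorafenib C the change was 0.18, with an interval from -0.06 to 0.42. Without perifosine B as well the interval ran from -0.04 to 0.40. With perifosine alone AARS1 read 13.08, 12.93 and 13.08, against 12.98, 12.92 and 12.85 in control cells, a change of 0.11. Groups as separate as those of TRIB3 and AARS1 were not rare: 828 genes (6.11%) had all 3 combination arrays above all 3 sorafenib arrays and 758 (5.59%) had them below.

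**Figure D2:**
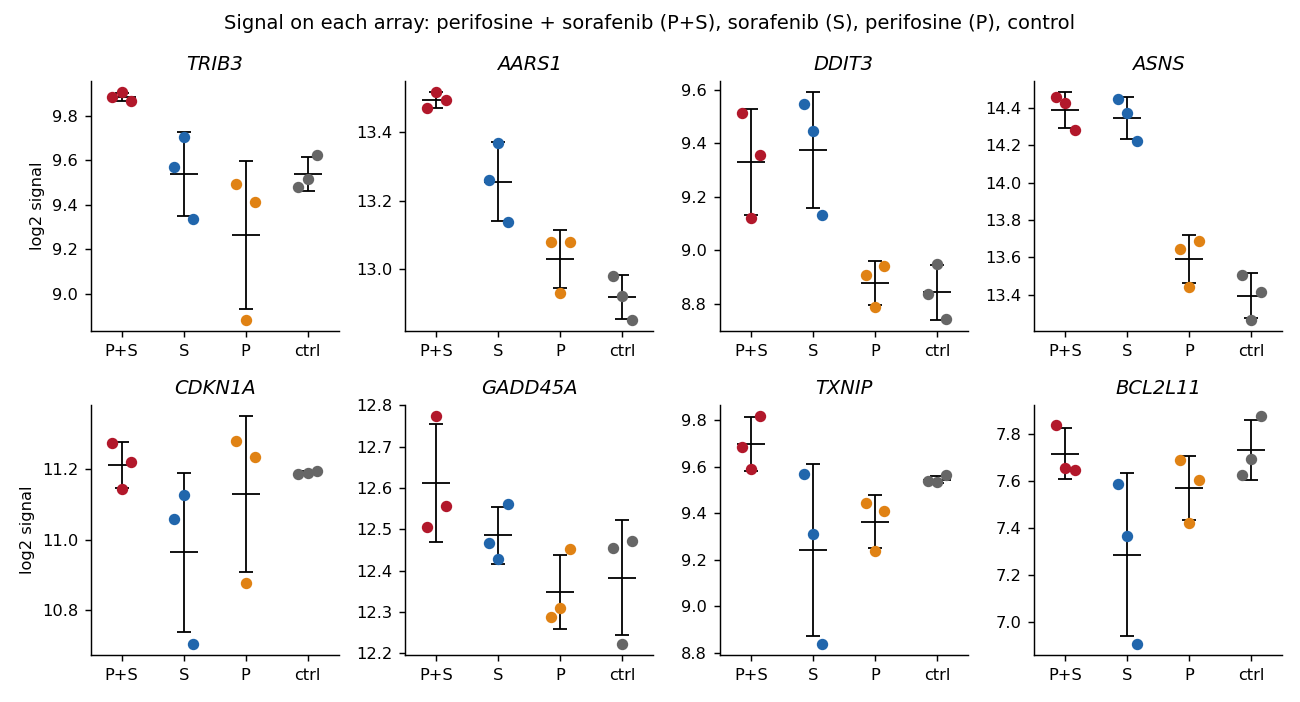
Log2 signal of 8 genes on each array, with combination, sorafenib, perifosine and control arrays from left to right in each panel. Long bars are group means and whiskers SDs over 3 arrays, and the vertical scale differs between panels. In the panels of TRIB3, AARS1, CDKN1A, TXNIP and BCL2L11 the combination arrays lie above the sorafenib arrays, of which replicate C is the lowest, while those of DDIT3, ASNS and GADD45A overlap.

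The start regions of both genes are shown because both are known targets of the ATF4 pathway, whose factors bind C/EBP-ATF elements. The windows are the 300 bases around a RefSeq start on GRCh38.p14, most of them before it. They were searched on both strands for that element as TGATGNAAN, which 3.61% of 35116 such windows hold, and for the FOXO element GTAAACA, which 3.42% hold. AARS1 has 1 match of the first (capitals, read on the opposite strand of the gene), 179 bases before its start, and no match of the second. The earliest of the TRIB3 windows listed has neither in these letters. AARS1 lies on the minus strand (chr16:70289457-70289756) and TRIB3 on the plus strand (chr20:381045-381344).
AARS1: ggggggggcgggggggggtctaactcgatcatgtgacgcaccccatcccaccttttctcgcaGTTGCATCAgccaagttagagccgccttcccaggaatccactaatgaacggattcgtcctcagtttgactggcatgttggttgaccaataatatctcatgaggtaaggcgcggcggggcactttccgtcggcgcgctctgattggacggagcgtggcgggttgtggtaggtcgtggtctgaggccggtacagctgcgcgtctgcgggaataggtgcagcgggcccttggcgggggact
TRIB3: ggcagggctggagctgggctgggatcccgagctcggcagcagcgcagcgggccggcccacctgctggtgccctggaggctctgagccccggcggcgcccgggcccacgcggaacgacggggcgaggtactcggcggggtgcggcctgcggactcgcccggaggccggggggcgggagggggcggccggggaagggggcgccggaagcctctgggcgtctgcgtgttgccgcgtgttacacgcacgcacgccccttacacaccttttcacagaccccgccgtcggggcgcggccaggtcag

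Other genes of the ATF4 and CHOP response gave small and mixed values. Of 42 tested members of that list, 0 were called, 25 lay above 0, and the median change was 0.040, against 0.0049 over all genes. Only TRIB3 among them had an unadjusted p under 0.05. ATF4 itself had a change of -0.04, with an interval from -0.29 to 0.20, and DDIT3 -0.04, from -0.33 to 0.24. The further ATF4 probes, at mean signals of 8.701 and 11.87 against 15.26, gave -0.22 and 0.20. DDIT3 read 9.51, 9.12 and 9.36 on combination arrays, against 9.55, 9.45 and 9.13 on sorafenib arrays, an overlap for which the exact permutation p was 0.7.

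The biosynthetic genes of the response lay close to 0. ASNS, asparagine synthetase, had a change of 0.04, and its signal of 14.46, 14.42 and 14.28 on combination arrays overlapped the 14.44, 14.37 and 14.22 on sorafenib arrays. PSAT1 of serine synthesis had a change of 0.07 and CTH of cysteine synthesis -0.02. For these 3 genes the intervals ended at 0.29, 0.27 and 0.25, short of 1.5-fold higher, which is 0.58 on this scale. The next members by p were DDIT4 (0.25), an inhibitor of mTOR, MTHFD2 (0.19) of mitochondrial folate metabolism and the factor CEBPB (0.28), each with 3 combination arrays above the 3 sorafenib arrays. The intervals of these 3 genes included 0. Of the 42 members of the list, 6 had all combination arrays above and 0 all below, against 6.11% and 5.59% of all genes.

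Among the cytosolic aminoacyl-tRNA synthetases, 14 of 18 tested lay above 0, with a median change of 0.092, and 2 had an unadjusted p under 0.05. MARS1, the methionine enzyme, read 11.79, 11.47 and 11.45 on combination arrays, against 11.23, 11.07 and 11.41 on sorafenib arrays, a change of 0.33 with an interval from 0.05 to 0.61. AARS1 was the other. SARS1 (0.21) and EPRS1 (0.20) followed, and their intervals included 0. The 18 changes ran from -0.085 to 0.332, and 17 of the 18 intervals lay inside 1.5-fold in both directions. Without sorafenib C, 13 lay above 0 and the median was 0.073. With perifosine alone 7 of the 18 lay above 0, and the median was -0.0054.

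Growth arrest genes showed no called member, and most of their intervals stopped short of 1.5-fold. Of 46 entries 43 had a probe and 38 were tested, and 27 of these (71.1%, against 51.4% of all genes) lay above 0, with a median of 0.065. Of the 38 intervals, 33 lay inside 1.5-fold and 37 inside 2-fold. With perifosine alone 17 of the 38 lay above 0 and the median was -0.010. Without sorafenib C, 28 lay above 0 and the median was 0.089. Groups were separate for 6 of the 38: CDKN1A, CDKN2D, DDIT4 and TXNIP had all combination arrays above, as 6.11% of all genes did, and RB1 and GAS6 all below, as 5.59% did. GAS6 passed the filter on dim probes only with its sorafenib arrays, where it was high. Its separation is therefore not independent of the filter.

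Of the inhibitors of cyclin-dependent kinases, CDKN1A (p21) read 11.27, 11.14 and 11.22 on combination arrays, against 11.06, 11.13 and 10.71 on sorafenib arrays. The groups did not overlap, but the lowest combination array and the highest sorafenib array almost met, and sorafenib C lay farthest away. The change was 0.25, with an interval from -0.04 to 0.54, and the exact permutation p was 0.1. Without sorafenib C the CDKN1A change was 0.12, from -0.16 to 0.40. The second CDKN1A probe gave 0.20. CDKN1B (p27) had a change of 0.11, CDKN2A (p16) 0.15, CDKN2B (p15) 0.06, CDKN2D (p19) 0.15 and the phosphatase CDKN3 0.25, all with intervals that included 0 and ended below 1.5-fold. The probes of CDKN2A differed: a second, also above background on all 12 arrays and nearly as bright (11.11 against 11.49), gave 0.55, and a dim one -0.21. A dim CDKN2D probe gave -0.37. CDKN1C (p57), a dim probe above background on 2 combination arrays and 1 sorafenib array, had 0.42, with an interval from -0.08 to 0.91, and 0.26 without sorafenib C.

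The GADD45 genes, induced by DNA damage and other stress, gave 0.13 for GADD45A and 0.17 for GADD45G. GADD45A read 12.51, 12.77 and 12.56 on combination arrays, against 12.47, 12.43 and 12.56 on sorafenib arrays, so the groups overlapped. GADD45B exceeded background on 2 of the 3 combination arrays but on 0 of the 3 sorafenib arrays, with mean log2 signals of 6.617 and 6.066. GADD45B needed those combination arrays to pass the filter on dim probes, so these counts are not independent of the filter. Its interval, from -0.04 to 1.14, was the one in this list that reached 2-fold. Its change was 0.55, 0.33 without sorafenib C and 0.22 without background correction, and no fold is given for it because the combination mean does not exceed the lowest signal above background. PPP1R15A (GADD34), the phosphatase subunit that ends the stress arrest of translation, had a change of 0.17.

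TXNIP, an inhibitor of thioredoxin and of glucose uptake whose gene FOXO factors and glucose control, had the lowest unadjusted p of the growth arrest list. It read 9.69, 9.59 and 9.82 on combination arrays, against 9.57, 9.31 and 8.84 on sorafenib arrays. The groups were separate, sorafenib A almost reached the combination, and sorafenib C lay far below it. The change was 0.46 ± 0.16 (SE, n = 3 each), with an unadjusted p of 0.011 and an adjusted p of 0.813 in limma, and perifosine alone gave -0.18. Without sorafenib C the TXNIP change was 0.26, from -0.01 to 0.53, with an unadjusted p of 0.0614, and 0.0456 without perifosine B as well. At the other end GAS6, a ligand of the receptor AXL, had mean signals of 6.41 in the combination and 6.736 with sorafenib. It was above background on 0 combination and 2 sorafenib arrays. Its mean was at least 1.01-fold lower in the combination, and it was not called (adjusted p = 0.815 in limma). The bound sets the dim group at the lowest signal above background and leaves out the spread among arrays.

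The remaining arrest genes lay near 0. Among the anti-proliferative BTG and TOB proteins, BTG1 had a change of 0.00, with an interval from -0.20 to 0.20, BTG3 -0.07, TOB1 -0.08 and TOB2 0.05. The sestrins, which restrain mTOR under stress, gave 0.04 for SESN1, 0.08 for SESN2 and -0.07 for SESN3. GAS1 had 0.08, the cyclin G genes CCNG1 and CCNG2 0.07 and 0.05, ING1 0.06, and the pocket proteins RB1 and RBL2 -0.13 and 0.09. RB1 read 10.71, 10.71 and 10.52 on combination arrays, against 10.80, 10.72 and 10.81 on sorafenib arrays, which were separate by a narrow margin.

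**Figure D3:**
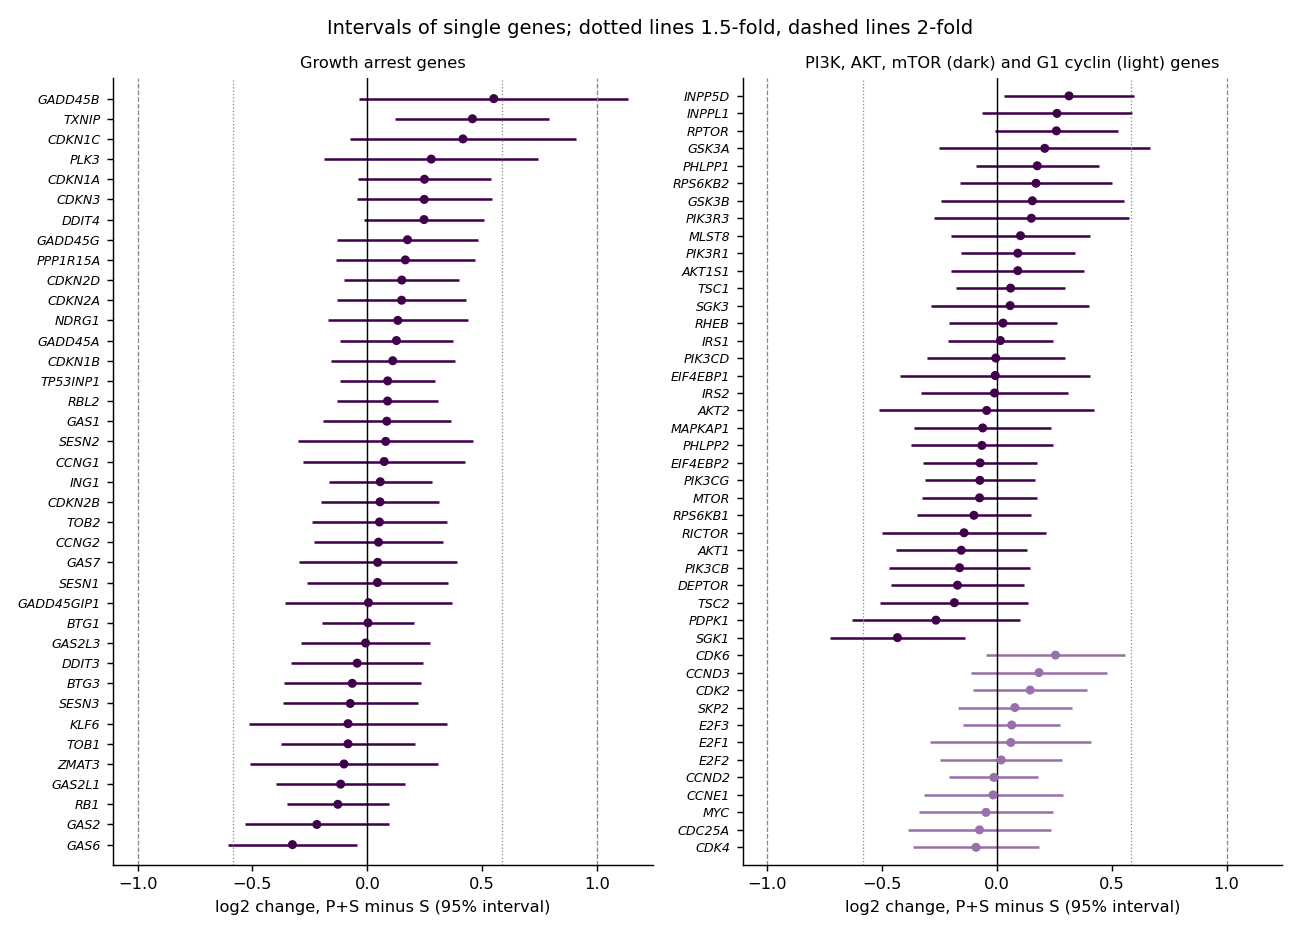
Change on the log2 scale, combination minus sorafenib, of the 38 tested growth arrest genes (left) and of 32 genes of the PI3K, AKT and mTOR pathway (right, dark) and 12 G1 cyclin genes (right, light). Points are estimates and bars 95% intervals of single genes from limma, with dotted lines at 1.5-fold and dashed lines at 2-fold. The bar of GADD45B alone crosses a 2-fold line.

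The cyclins, kinases and factors of G1 had no called member. All 12 tested genes of the G1 list had intervals inside 1.5-fold, 7 of 12 lay above 0, the median was 0.040, and 0 had an unadjusted p under 0.05. MYC had a change of -0.05, with an interval from -0.34 to 0.24, CDK4 -0.09, CCND2 -0.01, CCND3 0.18 and CDK6 0.25. CDK6 read 12.82, 12.90 and 12.85 on combination arrays, against 12.73, 12.72 and 12.36 on sorafenib arrays, the only gene of that list with separate groups, again with sorafenib C lowest. Without that array the change was 0.13, from -0.17 to 0.44. CCND1 and CCNE2 were too dim to be tested.

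Of 39 DNA replication genes 20 lay above 0, with a median of 0.0093, and of 36 mitosis genes 18, with a median of -0.0048. LIG1, the ligase that joins lagging strand fragments, had a change of -0.24 and was lower on all 3 combination arrays. GINS1, a subunit of the replicative helicase, was above background on 0 combination and 3 sorafenib arrays. Its mean was at least 1.27-fold lower in the combination, and it was not called (adjusted p = 0.785 in limma). That bound leaves out the spread among arrays, and the 95% interval of the change ran from -1.39 to -0.24. The centromere histone CENPA had a change of 0.32 and the kinase NEK2 0.26. A second CENPA probe, at 12.21 log2 signal, gave -0.02. In both lists, these 4 genes were those with an unadjusted p under 0.05.

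Transcripts of the pathway that perifosine acts on were spread around 0. Of 32 tested genes of PI3K, AKT and mTOR signalling 15 lay above 0, with a median of -0.0063, 27 intervals lay inside 1.5-fold and all 32 inside 2-fold. AKT1 had a change of -0.16, AKT2 -0.04, MTOR -0.08, the mTORC2 subunit RICTOR -0.14 and the catalytic subunit PIK3CD -0.01. Further AKT1 probes, at mean signals of 13.43 and 6.685 against 14.28, gave 0.04 and -0.05. INPP5D (SHIP1), a phosphatase that removes the lipid product of PI3K, read 9.29, 9.0 and 9.05 on combination arrays, against 8.88, 8.74 and 8.78 on sorafenib arrays. The groups were separate, as they were in this direction for 6.11% of all genes. The change of 0.31 had an interval from 0.03 to 0.60 and an adjusted p of 0.815 in limma. A dim second probe gave 0.35. The related phosphatase INPPL1 had 0.26, the mTORC1 subunit RPTOR 0.26 and the kinase PDPK1, which activates AKT, -0.27, all with intervals that included 0. Without sorafenib C, INPPL1 had 0.13 and PDPK1 -0.12. The further passing PDPK1 probes, at mean signals of 11.24, 7.33 and 7.202 against 12.53, gave -0.05, 0.04 and -0.08.

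SGK1, a kinase related to AKT and itself a FOXO target, was below background in the combination. It read 6.38, 6.44 and 6.30 on combination arrays, against 7.07, 6.56 and 6.79 on sorafenib arrays, of which 2 were above background. The SGK1 mean was at least 1.06-fold lower in the combination, a bound without sampling error, and SGK1 was not called (adjusted p = 0.764 in limma). Its fitted change was -0.43 with background correction and -0.20 without.

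FOXO factors and their targets had the second highest list median, 0.0999, and that value rested in part on 1 array. Of 27 tested members 18 lay above 0 and 2 had an unadjusted p under 0.05, TXNIP and BCL2L11, while without sorafenib C 15 lay above 0 and the median was 0.052. The factors FOXO1, FOXO3 and FOXO4 had changes of 0.11, 0.10 and 0.13, and 0.11, -0.01 and 0.16 without sorafenib C. The passing FOXO3 probes differed: another, above background on all 12 arrays at a mean signal of 11.01, gave -0.11, and a dim one 0.27. BCL2L11 (BIM), a BH3 protein that triggers mitochondrial apoptosis, read 7.84, 7.66 and 7.65 on combination arrays, against 7.58, 7.37 and 6.91 on sorafenib arrays, a change of 0.43, and 0.24 without sorafenib C, with an interval from -0.05 to 0.53. Its probes disagreed: the others, at mean signals of 7.212 and 6.96, gave -0.37 and -0.04. The part of the FOXO factors in these values was not tested.

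Values of death genes lay on both sides of 0, and 0 genes were called. Of 26 pro-apoptotic genes 14 lay above 0, with a median of 0.014, and 6 had an unadjusted p under 0.05, 4 higher and 2 lower. Over all genes 3.21% were higher and 2.83% lower at that p. The lower ones in this list were TNFRSF10A, a TRAIL receptor, and BAX. TNFRSF10A read 8.92, 8.97 and 8.85 on combination arrays, against 9.28, 9.11 and 9.32 on sorafenib arrays, a change of -0.32 ± 0.10 (SE) with an interval from -0.54 to -0.10 and an adjusted p of 0.764 in limma. BAX, which opens the mitochondrial outer membrane, read 10.98, 11.08 and 11.05, against 11.36, 11.42 and 11.46 with sorafenib alone. Its change was -0.38, and both further BAX probes were also below 0, at -0.28 and -0.50. With perifosine alone BAX had 0.20, and the interaction was -0.58 with an adjusted p of 0.606.

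The higher death genes included FADD, the adaptor of death receptors, with 11.98, 12.18 and 11.998 on combination arrays, against 11.88, 11.67 and 11.59 on sorafenib arrays, and a change of 0.34. MLKL, the pore protein of necroptosis, had 0.32. Groups were separate for both. Of the 26 pro-apoptotic genes, 3 had all combination arrays above and 4 all below, against 6.11% and 5.59% of all genes. The anti-apoptotic genes showed 0 of 12 under an unadjusted p of 0.05 and a median of 0.019. MCL1, a short-lived guardian of mitochondria, had -0.14, with an interval from -0.40 to 0.12, and BCL2L1 -0.09.

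Sorafenib's own pathway gave isolated values. Of 19 genes of MAPK output, 9 lay above 0, with a median of -0.019. EGR3, an immediate early factor, read 8.02, 7.97 and 8.37 on combination arrays, against 7.64, 7.63 and 7.89 on sorafenib arrays, a change of 0.40 with an adjusted p of 0.815 in limma. A dim second EGR3 probe, at a mean signal of 6.882, gave 0.14. FOSB, at the edge of detection, had 0.51, with an interval from 0.03 to 1.0, and 0.24 without background correction. EGR1 ran the other way, at -0.38, with an interval that included 0.

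Perifosine resembles phospholipids, so lipid genes are of interest, and they too held no call. Of 25 genes of choline phospholipid synthesis and flippases, 0 had an unadjusted p under 0.05 and the median was 0.0097. PCYT1A, the rate-limiting enzyme of phosphatidylcholine synthesis, had 0.38 and CHKA, choline kinase, 0.20, both with intervals that included 0, and 0.23 and 0.08 without sorafenib C. Of 19 sterol synthesis and uptake genes, 11 lay above 0 when sorafenib was present, with a median of 0.078, and 16 of 19 with perifosine alone, with a median of 0.151. HMGCS1, an early enzyme of the pathway, had 0.20 with sorafenib and 0.21 without, and neither was called. STARD4, a cholesterol carrier, had 0.47 with an unadjusted p of 0.048.

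Inflammatory and other stress lists had no called member either. Of 23 NF-kB targets 16 lay above 0, with a median of 0.098 that became 0.030 without sorafenib C. CXCL8 (interleukin 8) read 6.63, 6.68 and 6.74 on combination arrays, against 6.89, 6.97 and 7.2 on sorafenib arrays, a change of -0.33, with 1 combination array and 3 sorafenib arrays above background. A second CXCL8 probe gave 0.14. Among 24 interferon-stimulated genes 1, IFI44L (-0.36, and -0.23 without sorafenib C), had an unadjusted p under 0.05, and the median was 0.050. Heat shock genes had a median of -0.0083, NRF2 targets -0.0024, ribosome biogenesis genes -0.014, autophagy and lysosome genes 0.060, metallothioneins 0.015 and housekeeping genes -0.030. The autophagy median became -0.0050 without sorafenib C. In these 6 lists, 0 genes had an unadjusted p under 0.05.

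**Figure D4:**
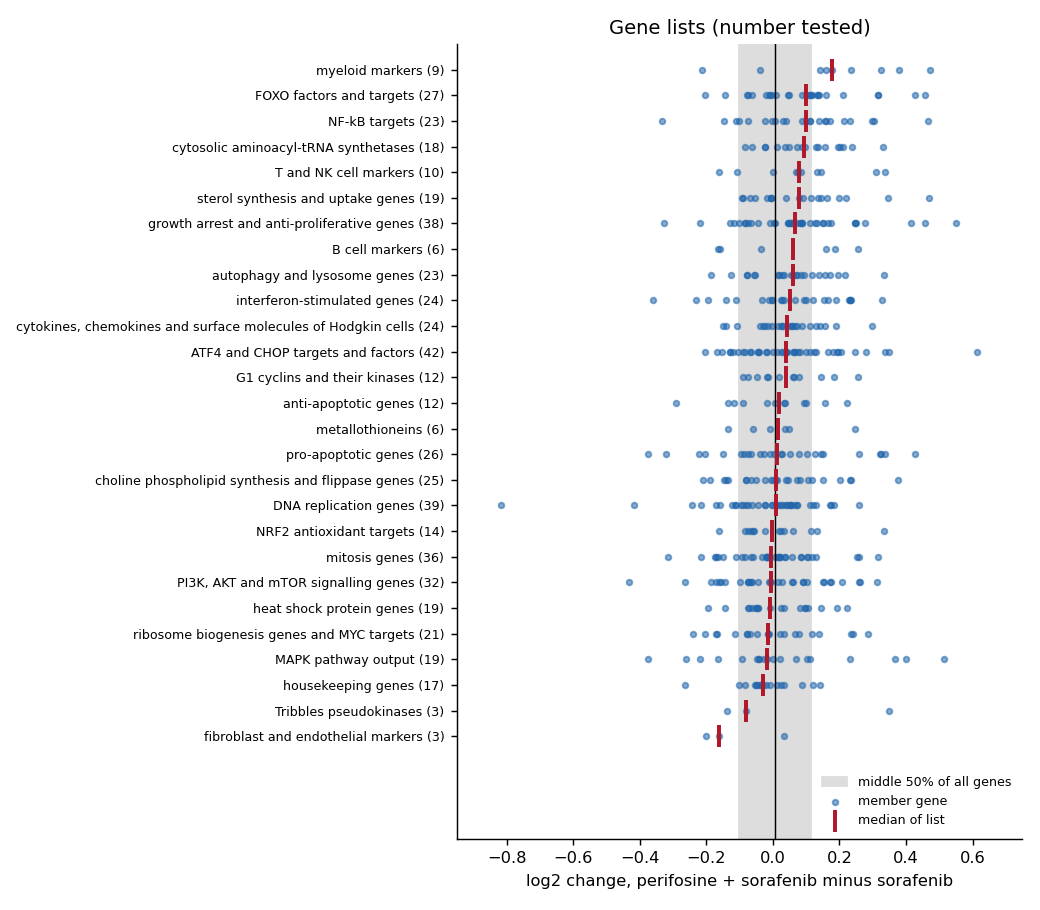
Change on the log2 scale, combination minus sorafenib, of the tested members of 27 gene lists, ordered by list median. Dots are genes, red bars list medians, and the grey band holds the middle 50% of all tested genes, from -0.10 to 0.12. Medians run from -0.162 for 3 fibroblast and endothelial markers to 0.178 for 9 myeloid markers.

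Over all 27 lists, 512 distinct genes were tested and 0 were called, with 18 medians above 0 and 9 below. For 507 of the 512 the 95% interval lay inside 2-fold in both directions and for 448 inside 1.5-fold. The 5 exceptions at 2-fold were GADD45B, VEGFA, GINS1, FOSB and IRF1, and VEGFA was named after its values were seen. VEGFA, the vascular growth factor, had a change of 0.61 with an interval from -0.17 to 1.4, and IRF1, an interferon response factor, 0.46 with an interval from -0.18 to 1.11. Without sorafenib C they had 0.11 and 0.24.

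The intervals give the sizes of effect that these arrays can and cannot bound for a single gene. The median 95% interval reached 0.31 on the log2 scale to either side of the estimate, and 90% of genes fell between 0.22 and 0.51. The whole interval lay inside 1.5-fold for 10711 (79%) and inside 2-fold for 13390 (98.8%). A 2-fold higher level in the combination lay beyond the interval for all but 100 genes, and a 2-fold lower level for all but 61. A 3-fold change lay outside for all but 3. Of the 13551 genes, 10491 were above background on all 6 arrays. For the others the interval bounds the corrected signal, and how far it bounds the RNA level was not tested. These intervals hold for one gene at a time. Widened so that they hold for all 13551 genes at once (Bonferroni), they lay inside 2-fold for 3063 genes (22.6%) and inside 3-fold for 10738 (79.2%). A lone gene of median precision would need a change of 1.09 on the log2 scale, 2.13-fold, to be called.

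Precision followed signal. Of the 4517 dimmest genes, 57.7% had intervals inside 1.5-fold and 97.1% inside 2-fold. The 4517 genes of middle signal had 86.1% and 99.6%, and the 4517 brightest 93.3% and 99.8%. The size of a difference near the floor of the corrected signal depends on the background correction, and its true size there was not tested. With the mean of both perifosine contrasts, 6 arrays against 6, 97% of intervals lay inside 1.5-fold and 99.9% inside 2-fold, and the median reach was 0.22.

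**Figure D5:**
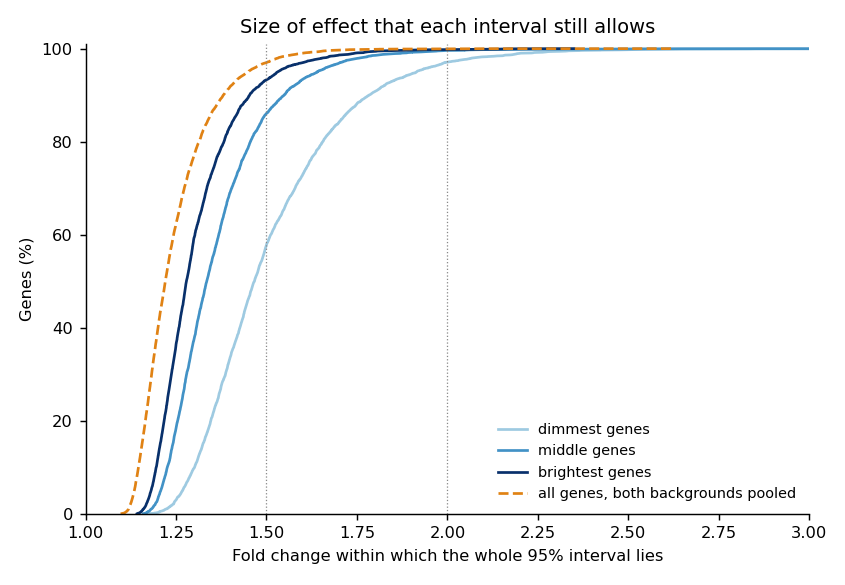
Share of genes in percent (vertical) whose whole 95% interval for the change lies inside a given fold change (horizontal, linear), for the combination minus sorafenib for 3 classes of 4517 genes by signal and, dashed, for the mean of both perifosine contrasts over all genes. At 1.5-fold the dim, middle and bright classes reach 57.7%, 86.1% and 93.3%, and at 2-fold 97.1%, 99.6% and 99.8%.

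The intervals that reached farthest from 0 belonged to the following genes. KCMF1, a ubiquitin ligase, read 8.56, 8.16 and 9.05 on combination arrays, against 6.27, 8.61 and 7.2 on sorafenib arrays. The groups overlapped, and the change of 1.23 had an interval from 0.25 to 2.21. Of its other probes the passing one gave 0.05. FBXO42, RAMP3 and MSR1 had the next highest upper bounds, at 1.81, 1.69 and 1.5. CRIP3, with 5.24, 6.21 and 6.87 on combination arrays, against 7.02, 6.51 and 7.28 on sorafenib arrays, had the lowest bound, -1.51, followed by GINS1 at -1.39, OVCH1 at -1.32, SSC5D at -1.31 and OR4D1 at -1.31. Without sorafenib C the change of RAMP3 turned to -0.35, against 0.53 with it, and that of SSC5D was -0.41, against -0.72.

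The genes at the head of the ranking by moderated t, chosen on this contrast and none of them called, were mostly near background. The 8 highest with separate groups were TTC28, CCDC70, TNC, TTLL1, ZNF155, MYOZ3, NEIL1 and LRP1B, and the 8 lowest were CLDN17, DUOX2, DISP2, JPH2, MYL7, FSCN2, ENPP3 and AMBN. On each side 7 of the 8 were among the 4517 dimmest genes. MYOZ3 passed the filter on its 3 combination arrays alone and FSCN2 on its 3 sorafenib arrays alone, the groups where they were high. TTC28, TTLL1, CLDN17, DUOX2 and DISP2 also needed arrays of their higher group to pass. For these genes the separation of groups is not independent of the filter. Sizes ran from 0.463 to 0.979 among the highest and from 0.475 to 0.898 among the lowest with background correction, and from 0.252 to 0.596 and from 0.205 to 0.359 without it. TNC (tenascin C), a matrix protein, was one of the 3 highest genes above background on all 6 arrays. It read 8.40, 8.14 and 8.27 on combination arrays, against 7.22, 7.23 and 7.61 on sorafenib arrays, a change of 0.92 (adjusted p = 0.608 in limma). On each side 6 of the 8 had the opposite sign with perifosine alone.

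JPH2, a junctional membrane protein of muscle, was likewise above background throughout, with 7.73, 7.64 and 7.58 on combination arrays, against 8.11, 8.17 and 8.16 on sorafenib arrays. Its further passing probe gave -0.23, against -0.50 for the one used. The probes of ZNF155 disagreed, at 0.46, 0.41 and -0.08. Several of these genes are known for other tissues, such as the cardiac myosin light chain MYL7 and the enamel protein AMBN, both above background on 0 combination arrays and 3 sorafenib arrays. The MYL7 mean was at least 1.18-fold lower in the combination, a bound without sampling error, and MYL7 was not called (adjusted p = 0.608 in limma).

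Perifosine without sorafenib gave no call either. Perifosine against control gave 0 called genes of 13551 in limma (0%), a smallest adjusted p of 0.991 and 544 (4.01%) under an unadjusted p of 0.05. The mean over both backgrounds gave 0 (0%), with 449 (3.31%). The interaction, which asks whether perifosine did something different with sorafenib than without, gave 0 (0%), with a smallest adjusted p of 0.379 and 1026 (7.57%) under an unadjusted p of 0.05. Across 13551 genes the changes of both perifosine contrasts, which share no array, correlated at -0.251 (Pearson) and -0.278 (Spearman), and 39.3% had the same sign. Without perifosine B and sorafenib C the values were -0.107, -0.127 and 44.6%. These are descriptions across genes, which are not independent, of arrays that were normalised together.

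Genes with one sign in both settings included CXCL8, EGR3 and AARS1. CXCL8 had -0.33 with sorafenib and -0.16 without, and its mean over both was -0.25, with an interval from -0.42 to -0.07. EGR3 had 0.40 and 0.16, with a mean of 0.28 and an interval from 0.04 to 0.52. AARS1 had 0.24 and 0.11, with a mean of 0.18 and an interval from 0.02 to 0.33. None of the 3 was called in that mean, which contains the contrast they were named from. TXNIP, BCL2L11, FADD, MLKL, INPP5D and CENPA were above 0 with sorafenib and below 0 without, and LIG1, BAX and SGK1 the reverse.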

How the data were processed

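Total RNA of HDLM-2 cells was labelled with biotin and read on Illumina arrays, as the labels' protocols state. The authors deposited a linear intensity for each of 48803 probes on each of 12 arrays, and these were the values used. The submitters' processing notes name BeadStudio without a version. The sources used here do not give the normalization. Sorted and set side by side, the deposited columns agreed to 0.0519% (median) and 1.09% (largest difference), so all arrays share one distribution, and the smallest value was 109.66. A second table with 24 columns of values, whose names match no sample, was not used.

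The deposited intensity was background corrected (normexp, offset 16), quantile normalised and put on the log2 scale. A probe passed if it exceeded a threshold near 225 (the mode of the array plus the upper 5% point of the spread below it) on at least 3 of the 12 arrays, and 25125 did. A dim probe could therefore pass through the one group where it was high. Annotation gave a single symbol to 28098 probes, several to 13 and none to 20692, and 28059 matched RefSeq (GRCh38.p14) by Entrez identifier. Each gene took its passing probe with the highest mean (13551 genes, 3656 with more than 1). Detection p-values, slides and scan dates were not used here, and 3 arrays a group limit the precision.

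All 12 arrays entered one limma model (3.58.1, R 4.3.3) of group means, which left 13.1 degrees of freedom after moderation and had residuals of SD 0.176 at the median. Genes under a Benjamini-Hochberg adjusted p of 0.05 were called, and intervals are 95%. The fit was also run on simulated data in which every array had independent errors of the same spread for a gene. Those data lack the joint deviation of sorafenib C and perifosine B, so they cannot show how it affects the intervals. A probe below the threshold on all arrays of a group has only a bound there. It compares the mean of the other group with the lowest signal above the threshold (6.717 to 6.72 log2) and carries no sampling error. Named genes were the 8 highest and 8 lowest by moderated t with separate groups, the 4 members of each list with the smallest p, tested members of the growth arrest, Tribbles, AKT and G1 lists, a few further stress and survival genes, and the 5 widest reaching intervals on each side. The members and the 27 lists were chosen with earlier results of these data known. Same-lettered samples did not deviate together (residual correlations -0.241 to 0.205), so the letters were not taken as pairs. Alternatives covered background correction, normalization, filters, probe choice, weights, moderation, the letter as a block and leaving out arrays.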

Additional observations from a re-analysis of the deposited data

How the results depend on the processing

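Limma called 0 genes for the combination against sorafenib under each of 26 alternatives, with smallest adjusted p-values from 0.134 to 0.952 and 574 to 1142 genes under an unadjusted p of 0.05. Perifosine against control also gave 0 under 26, and the mean over both backgrounds and the interaction gave 0 under 25 each. Genes with intervals inside 2-fold made up 96% to 100% of those tested. TRIB3 ranged from 0.248 to 0.433 (log2) and AARS1 from 0.18 to 0.297, both lowest without sorafenib C and highest without sorafenib B, with adjusted p-values of at least 0.591 and 0.649. The unadjusted p of TRIB3 ran from 0.00777 (without perifosine B) to 0.152 (without sorafenib C), so its side of 0.05 depends on single arrays. With the replicate letter as a block, the counts of called genes were 0, 13383 intervals lay inside 2-fold, and TRIB3 had 0.349 with an unadjusted p of 0.0532 and an adjusted p of 0.825. In the same fit sorafenib against control gave 111 called genes (0.819%), while 17 estimates passed 2-fold, so smaller changes can be called in this design. With 3 arrays a group, a lone change under about 2-fold in a gene of median precision would mostly not be called. Dim probes are limited by the background. The absence of calls therefore does not show that perifosine added nothing.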
